A study of Mus musculus with 18 samples.

Results

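The 36 genes described here are enzymes, transporters and biogenesis factors of fatty acid beta-oxidation in mitochondria and peroxisomes. They were found by gene name in every library, 36 of the 24539 genes listed. For the comparison between organelles, 16 members were placed in mitochondria and 15 in peroxisomes. The other 5, Crat, Eci2, Ech1, Amacr and Acsl1, act in both organelles or elsewhere and were kept apart.

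The study measured liver RNA from 9 wild-type male C57BL/6 mice, 3 on each of 3 diets. Control mice ate normal chow, HFD mice ate a high-fat diet, and HFD+LYC mice ate that diet together with lycopene, the red carotenoid of tomatoes. Each diet lasted 8 weeks and all mice were 16 weeks old at sampling. Each liver gave 1 poly(A) library of total RNA (mRNA) and 1 of RNA bound to ribosomes that carry a growing chain (ribosome-nascent chain complexes, RNC), which were pelleted through sucrose, so there were 18 libraries. The labels give neither a dose of lycopene nor a composition of the high-fat diet. No group received lycopene on chow.

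Beta-oxidation shortens a fatty acid by a repeated cycle of dehydrogenation, hydration, a second dehydrogenation and thiolytic cleavage. In mitochondria, acyl groups arrive through the carnitine shuttle, acyl-CoA dehydrogenases of different chain-length preference open the cycle, and electron transfer flavoprotein passes their electrons to the respiratory chain. Peroxisomes hold a separate set of enzymes, in which acyl-CoA oxidases replace the dehydrogenases, and shorten very-long-chain and branched fatty acids that carnitine carriers then pass to mitochondria. In liver, many of these genes are known targets of the nuclear receptor PPAR-alpha, which fatty acids activate.

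Reads assigned to listed genes numbered between 4533729 and 12742436 per library, and 3 reads corresponded to between 0.235 and 0.662 CPM (counts scaled to the size of the library). Members took 1.12% to 2.10% of the reads in mRNA libraries and 1.28% to 2.06% in control and HFD RNC libraries. In the HFD+LYC RNC libraries they took 0.217%, 0.904% and 0.4997%. Those 3 libraries stood apart in other ways: they had reads from 8940 to 10037 genes, against 13324 to 14450 in the other RNC libraries, and 70 to 112 genes with exactly 1 read, against 614 to 861. Their 10 highest genes held 47.35%, 31.92% and 39.28% of the reads, against 25.65% to 34.16% in the other RNC libraries. Their TMM scaling factors were 0.428, 1.15 and 0.836, against 1.07 to 1.34. The authors' library total held 29.93% of its reads beyond the listed genes in replicate 2, the most of all libraries. Every RNC result for HFD+LYC rests on these 3 libraries and on that scaling. Of the 7 hepatocyte markers listed, none was at 0 in any library. All 36 members passed the filter on low counts in each fit, and 35 had a read in every library. The exception was Pex11a, with no read in HFD+LYC RNC replicate 2. Levels below are CPM after TMM scaling within the mRNA or the RNC libraries, so mRNA and RNC values are on separate scales. Values are listed for replicates 1, 2 and 3 in that order. Adjusted p-values are two-sided, from edgeR's quasi-likelihood test with Benjamini-Hochberg adjustment over all genes tested (12664 in mRNA and 11660 in RNC libraries), and n is 3 livers per diet, so they measure the spread between these livers.

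Levels per kilobase of transcript spanned a wide range in each organelle. In control mRNA libraries the highest mitochondrial member was Etfb, the beta subunit of electron transfer flavoprotein, at 362 ± 176 CPM per kb (mean ± SD, n = 3, as for the levels that follow). Acaa2, the mitochondrial thiolase, followed at 331 ± 209.8, and these neighbours did not differ beyond their spread. The lowest was Hadha, the alpha subunit of the trifunctional protein, at 26.9 ± 4.93 CPM per kb. Among peroxisomal members the highest was Scp2, which encodes the thiolase for branched chains and a sterol carrier protein, at 1686 ± 344 CPM per kb. Phyh, the hydroxylase that opens alpha-oxidation of phytanic acid, lay near it at 1368 ± 400.2. The lowest peroxisomal member was Abcd2, a transporter of very-long-chain acyl-CoA, at 0.834 ± 0.351 CPM per kb. In control RNC libraries the mitochondrial extremes were Acaa2 (379 ± 39.8 CPM per kb) and Hadha (19.0 ± 4.07), and the peroxisomal extremes were Phyh (1552 ± 55.6) and Abcd2 (0.393 ± 0.0969). Scp2, at 1533 ± 200.2 CPM per kb, was again within the spread of Phyh. On HFD, Scp2 and Abcd2 were again the peroxisomal extremes in both kinds of library. In HFD+LYC livers Acaa1b was the highest peroxisomal member, at 2324 ± 1001 CPM per kb in mRNA and 738 ± 349.8 in RNC libraries.

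A pair of sequence features bears on how the members' counts can be read. Acaa1a and Acaa1b, the paralogous peroxisomal 3-ketoacyl-CoA thiolases, lie near each other on chromosome 9 (GRCm38.p6, 119148043 to 119157093 for Acaa1b and 119341028 to 119350296 for Acaa1a). Their transcripts matched at 1528 of 1638 aligned bases (93.3%), and 34.0% of the 50-base stretches of Acaa1a occur unchanged in Acaa1b. The stretch below, from the middle of their alignment (bases 837 to 926 of the 1762-base Acaa1a transcript and 715 to 804 of the 1689-base Acaa1b transcript, GENCODE M21), is shown because a read inside it can be told apart only at the 2 bases in capitals:
Acaa1a: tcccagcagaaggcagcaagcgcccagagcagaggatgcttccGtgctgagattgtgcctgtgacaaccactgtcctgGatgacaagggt
Acaa1b: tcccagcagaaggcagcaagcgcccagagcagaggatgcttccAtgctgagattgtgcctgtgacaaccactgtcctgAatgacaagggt
Reads were mapped to RefSeq RNA sequences, per the series' design text, but no source used here gives how the authors assigned such reads, so the split between Acaa1a and Acaa1b is uncertain. The same holds for Etfb, Hadhb, Hacl1 and Scp2, of whose 50-base stretches 67.3%, 62.4%, 55.6% and 41.4% also occur in transcripts that the annotation gives to other genes, mostly pseudogenes or overlapping models. Of the other members, 23 shared no such stretch and 7 shared it over 0.216% to 8.94% of their length, Eci2 the most, with Eci3. Echs1, Etfb, Etfdh, Acaa1b, Crat and Pex11a each overlap another protein-coding gene, and strand use is not given, so their counts may include its reads.

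Hadha and Hadhb, the alpha and beta subunits of the mitochondrial trifunctional protein, are read in opposite directions from starts that lie 272 bases apart on chromosome 5. The bases upstream of Hadhb (plus strand, chr5:30155003-30155252, GRCm38.p6, RefSeq) are shown because most of them serve as the upstream window of both genes. Capitals mark the 228 bases that the 300-base windows around both starts share:
Hadhb upstream: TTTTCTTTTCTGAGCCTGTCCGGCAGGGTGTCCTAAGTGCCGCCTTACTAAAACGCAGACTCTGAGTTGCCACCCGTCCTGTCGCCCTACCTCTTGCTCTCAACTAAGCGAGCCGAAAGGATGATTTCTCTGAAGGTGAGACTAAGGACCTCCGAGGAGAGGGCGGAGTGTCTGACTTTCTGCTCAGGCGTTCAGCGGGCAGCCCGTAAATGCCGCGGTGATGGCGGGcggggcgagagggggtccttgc
RefSeq windows from 250 bases before to 50 bases after a start were found for 29 of the 36 members. The direct repeat that PPAR-alpha binds with its partner RXR, AGGTCA and AGGTCA with 1 base between (both strands), was in 0.0396% of all 32851 windows, and the looser AGGNCA and AGGNCA with 1 base between, which includes the first, in 0.381%. Neither was in any member's window, which says only that these letters are not there.

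Whether the high-fat diet moved these genes was asked first in mRNA of HFD against control livers. Most members stood higher in HFD livers, but none passed the test. Of the 36, 32 were above control, against 49.1% of all genes, with a median log2 fold change of 0.45, against -0.0072 over all genes. That median was 0.767 without control replicate 1, 0.30 without control replicate 2 and 0.182 without HFD replicate 3. No member was called, where 0.0158% of all genes were called, and DESeq2 and limma-voom called none either. At an unadjusted p under 0.05 there were 5 members, and 358 of all 12664 genes. The values of all 3 HFD livers lay above those of all 3 control livers for 6 members and below for 1, against 3.76% and 3.46% of all genes. Those 6 were Acaa1a, Acaa1b, Pex11a, Eci2, Crat and Pex19, and the lower one was Crot. Among the 16 mitochondrial members, 14 were above control (median 0.43), but the groups overlapped for every one of them. Among the 15 peroxisomal members, 13 were above control (median 0.44). In bulk liver, fewer cells of a type and less RNA per cell cannot be told apart, here or in the comparisons that follow.

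Abcd2 had the largest difference, with 6.83, 3.86 and 3.17 CPM on control chow and 6.10, 20.0 and 19.1 on HFD (log2 fold change 1.70, SE 0.57, unadjusted p = 0.0115). Its groups overlapped, since HFD replicate 1 lay within the control range. Acaa1b stood at 1102, 540.2 and 743 CPM on control chow and 1646, 2233 and 1864 on HFD (log2 fold change 1.27, SE 0.45). Pex11a, a membrane protein that drives peroxisome division, stood at 6.57, 14.1 and 9.39 CPM on control chow and 18.2, 26.1 and 20.8 on HFD (log2 fold change 1.12, SE 0.35). For both genes every HFD liver was above every control liver. Crat, carnitine acetyltransferase, stood at 40.7, 32.5 and 30.0 CPM on control chow and 51.9, 66.9 and 72.4 on HFD, and had the smallest p of the members (log2 fold change 0.89, SE 0.27, adjusted p = 0.962). Eci2, an enoyl-CoA isomerase for unsaturated chains, stood at 112, 107 and 99.9 CPM on control chow and 169.7, 172 and 205 on HFD, and Acaa1a at 396, 248 and 305 CPM on control chow and 494, 602 and 522 on HFD. Pex19, the import receptor for peroxisomal membrane proteins, differed little in size, at 76.7, 79.1 and 74.5 CPM on control chow and 94.5, 84.8 and 104 on HFD (log2 fold change 0.30, SE 0.28), though its groups did not overlap.

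The most negative log2 fold change on HFD was that of Crot, carnitine octanoyltransferase, which passes shortened chains out of peroxisomes. Crot stood at 759, 786 and 952 CPM on control chow and 642, 663 and 699 on HFD (log2 fold change -0.32, SE 0.31). Acadsb, the dehydrogenase for short branched chains, followed with 148, 90.4 and 135 CPM on control chow and 114, 70.8 and 131 on HFD (log2 fold change -0.24, SE 0.34). Etfb stood at 484, 166 and 333 CPM on control chow and 275, 321 and 319.8 on HFD (log2 fold change -0.10, SE 0.51), with control replicate 2 the lowest of the 6 livers. All 16 mitochondrial members shared that pattern within the control group, in which replicate 2 was the lowest mRNA library. Replicate 3 was the highest HFD library for 15 of the 16, so the spread within a diet was wide.

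What adding lycopene to the high-fat diet changed was examined next, in mRNA of HFD+LYC against HFD livers. Here 28 of 36 members were below HFD, against 51.9% of all genes, with a median log2 fold change of -0.49, against -0.04 over all genes. That median was -0.244 without HFD replicate 3 and -0.313 without HFD+LYC replicate 2. A single member, Crot, was called, lower, where 0.916% of all genes were called lower and 1.99% higher. With the replicate number as a block, a pairing that no label gives across diets, 3 members were called lower, Crot among them. Calls over all genes then numbered 1457 in place of 368. Crot stood at 759, 786 and 952 CPM on control chow, 642, 663 and 699 on HFD, and 211, 215 and 243 on HFD+LYC (log2 fold change -1.58, SE 0.32, adjusted p = 0.0288). The 3 HFD+LYC livers were close together and all were under the lowest HFD liver. The call held with DESeq2, limma-voom and RLE size factors, but was lost without any 1 of the 6 compared libraries or without control replicate 3 (adjusted p 0.055 to 0.116), and with a correction for transcript GC content (log2 fold change -1.28, adjusted p = 0.065). The HFD+LYC livers did not overlap the HFD livers for 8 members that were lower and 4 that were higher, against 15.2% and 16.7% of all genes.

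Besides Crot, the members lower without overlap were Ehhadh, Etfdh, Hadhb, Hacl1, Cpt2, Amacr and Acox2. Ehhadh, the bifunctional peroxisomal enzyme for hydration and dehydrogenation, stood at 138, 168 and 329 CPM on HFD and 49.5, 44.0 and 108 on HFD+LYC (log2 fold change -1.66, SE 0.54, adjusted p = 0.102). Etfdh, the dehydrogenase that hands flavoprotein electrons to ubiquinone, stood at 76.9, 101 and 233 CPM on HFD and 52.5, 47.5 and 60.2 on HFD+LYC (log2 fold change -1.36, SE 0.41, adjusted p = 0.0874). Neither was called with edgeR, whereas DESeq2 called both (adjusted p = 0.0226 and 0.0173). Hadhb stood at 85.7, 105 and 223 CPM on HFD and 65.4, 65.9 and 75.3 on HFD+LYC, and Hacl1, the lyase of alpha-oxidation, at 199, 136 and 219 CPM on HFD and 83.9, 91.8 and 119 on HFD+LYC. Cpt2, the inner carnitine palmitoyltransferase, stood at 167, 172 and 189 CPM on HFD and 113, 70.5 and 142 on HFD+LYC, with no HFD+LYC liver as high as the lowest HFD liver. The other 2 had smaller differences, -0.49 for Amacr, the racemase for branched chains, and -0.48 for Acox2, the oxidase for branched chains and bile acid precursors, both in log2 fold change. Abcd2 had the most negative value, -1.75 (SE 0.57), with 6.10, 20.0 and 19.1 CPM on HFD and 1.47, 4.89 and 6.95 on HFD+LYC, but its groups overlapped.

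Acaa1a, Acaa1b, Eci2 and Crat were higher without overlap, and none was called with edgeR. Acaa1a stood at 494, 602 and 522 CPM on HFD and 919, 1490.4 and 939.6 on HFD+LYC (log2 fold change 1.05, SE 0.36, adjusted p = 0.118). Acaa1b stood at 1646, 2233 and 1864 CPM on HFD and 2692, 5790.3 and 3155 on HFD+LYC (log2 fold change 1.02, SE 0.45, adjusted p = 0.193). HFD+LYC replicate 2 was the highest liver for both. Eci2 and Crat differed less, with log2 fold changes of 0.57 (SE 0.29) and 0.42 (SE 0.27), and Pex11a, at 0.71 (SE 0.34), overlapped.

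Against control livers, HFD+LYC mRNA differed in 6 members, 5 higher and 1 lower, where 3.31% and 2.23% of all genes were called higher and lower. This comparison shares its HFD+LYC libraries with the one before and its control libraries with the first. The median over the members was -0.07, against -0.05 over all genes, and ran from -0.42 to 0.12 with a library left out. Acaa1b rose from 795 ± 285 to 3879 ± 1671 CPM (SD, n = 3; log2 fold change 2.29, SE 0.47, adjusted p = 0.0194). Acaa1a rose from 316 ± 74.8 to 1116 ± 324 CPM (log2 fold change 1.82, SE 0.37, adjusted p = 0.0191). Since the pair may share reads, these are not independent calls. Pex11a stood at 6.57, 14.1 and 9.39 CPM on control chow, 18.2, 26.1 and 20.8 on HFD, and 41.0, 22.1 and 43.2 on HFD+LYC, and rose (log2 fold change 1.82, SE 0.35, adjusted p = 0.0159; gene at chromosome 7, 79735957 to 79743131). Eci2 stood at 112, 107 and 99.9 CPM on control chow, 169.7, 172 and 205 on HFD, and 237, 331 and 243 on HFD+LYC, and rose (log2 fold change 1.35, SE 0.30, adjusted p = 0.0261; gene at chromosome 13, 34977748 to 35027115). Every HFD+LYC liver was above every control liver for each of these. Crat stood at 40.7, 32.5 and 30.0 CPM on control chow, 51.9, 66.9 and 72.4 on HFD, and 79.4, 74.5 and 102 on HFD+LYC, and rose (log2 fold change 1.31, SE 0.28, adjusted p = 0.0213; gene at chromosome 2, 30400476 to 30416017). Crot fell (log2 fold change -1.90, SE 0.33, adjusted p = 0.00966; gene at chromosome 5, 8966033 to 8997146).

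These 6 calls were not all stable. Without control replicate 3 none of them passed (adjusted p 0.064 to 0.145), without HFD+LYC replicate 1 only Acaa1b did, and without control replicate 1 Eci2, Crat and Pex11a did not. Without HFD+LYC replicate 2 Eci2 and Acaa1a did not pass, nor did Crat without HFD+LYC replicate 3. With the GC correction Eci2, Pex11a and Crot kept their calls, while Acaa1a, Acaa1b and Crat did not (adjusted p = 0.0834, 0.061 and 0.0813). Decr2, a peroxisomal reductase for unsaturated chains, was higher without overlap (126, 102 and 102 CPM on control chow, 113, 138 and 199 on HFD, and 212, 176 and 303 on HFD+LYC) and was not called (log2 fold change 1.06, SE 0.34, adjusted p = 0.0904). Besides Crot, Acadsb, Etfdh and Amacr were lower without overlap (log2 fold changes -0.91, -0.55 and -0.43), none of them called, while Ehhadh, at -0.85, overlapped. Members higher and lower without overlap numbered 6 and 4, against 14.3% and 13.7% of all genes. None of the 16 mitochondrial members was called, and their log2 fold changes ran from -0.91 for Acadsb to 0.39 for Hadha.

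**Figure D1:**
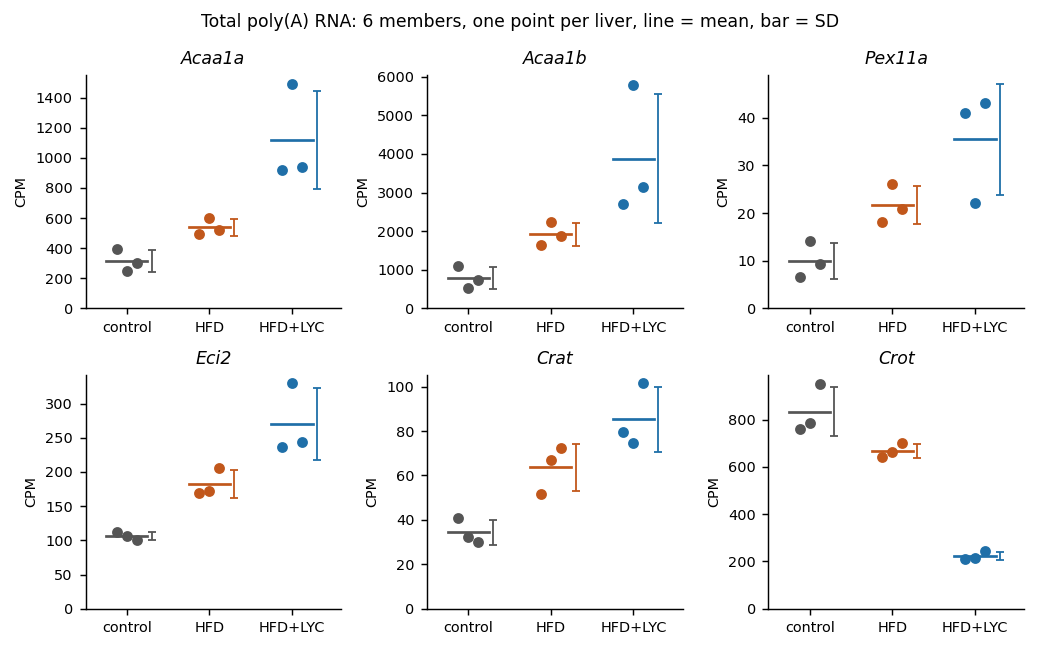
Levels in total poly(A) RNA (CPM, linear axes from 0) of the 6 members called in HFD+LYC against control livers, with 1 point per liver, the mean as a line and the SD as a bar (n = 3). Acaa1a, Acaa1b, Pex11a, Eci2 and Crat are lowest in control livers, and Crot is lowest in the 3 HFD+LYC livers.

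The same diets were compared in ribosome-bound RNA. In HFD against control RNC libraries, 28 of 36 members were above control, against 51.2% of all genes, with a median log2 fold change of 0.31, against 0.0084 over all genes. Without HFD replicate 2 that median was 0.179. No member was called, where 0.00858% of all genes were called. There were 5 members at an unadjusted p under 0.05, a count with no share of all genes beside it here, and limma-voom called none. DESeq2 called Abcd2 alone (adjusted p = 0.021), where it called 33 of all genes. Abcd2 stood at 2.20, 2.70 and 1.63 CPM on control chow and 4.76, 31.8 and 14.4 on HFD (log2 fold change 2.96, SE 0.76, edgeR unadjusted p = 0.00328). Every HFD liver was above every control liver, though the HFD livers differed widely. Such separation held for 9 members that were higher and 1 that was lower, against 6.97% and 7.2% of all genes. The 9 were Scp2, Eci1, Hsd17b4, Acadl, Acadm, Ech1, Crat, Acaa1b and Abcd2, and the lower one was Phyh.

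Acaa1b stood at 601, 382 and 393 CPM on control chow and 807, 1157 and 829.6 on HFD (log2 fold change 1.02, SE 0.39), and Crat at 18.2, 17.9 and 24.0 CPM on control chow and 29.2, 47.1 and 33.9 on HFD (log2 fold change 0.88, SE 0.29). Both were thus higher without overlap in mRNA and in RNC libraries of HFD livers. Ech1, an isomerase for dienoyl-CoA found in both organelles, stood at 212, 179.8 and 241 CPM on control chow and 301, 357 and 331 on HFD. Acadm, the medium-chain dehydrogenase, stood at 178, 204 and 191 CPM on control chow and 219, 365 and 286 on HFD, and Acadl, the long-chain dehydrogenase, at 184, 148 and 146 CPM on control chow and 206, 257 and 242 on HFD. Eci1, the mitochondrial enoyl-CoA isomerase, Hsd17b4, the peroxisomal multifunctional enzyme for branched chains, and Scp2 had smaller log2 fold changes of 0.46, 0.47 and 0.26. The most negative log2 fold changes were those of Acox2 (-0.33), Acadsb (-0.31) and Hacl1 (-0.20), all with overlapping groups, and Phyh differed by -0.16. Pex11a was low in every RNC library, at 0.97, 2.15 and 3.03 CPM on control chow, 1.59, 8.73 and 3.63 on HFD, and 2.28, 0 and 12.3 on HFD+LYC (log2 fold change 1.19, SE 1.30 for HFD against control).

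More members were called for HFD+LYC against HFD in RNC than in mRNA libraries. Of the 36 members 18 were called lower and none higher, where 17.4% and 9.34% of all genes were called lower and higher. Of the 36, 28 were below HFD, against 58% of all genes, and the median was -1.18, against -0.29 over all genes. The 18 held 9 of 16 mitochondrial members, 8 of 15 peroxisomal members and Amacr. For 20 members every HFD+LYC liver was under every HFD liver, and for 1, Etfb, above, against 28.1% and 13.3% of all genes. Described by role, lower calls were made for all 3 alpha-oxidation and branched-chain members, 4 of 5 hydratase, dehydrogenase and thiolase steps of mitochondria, 4 of 7 peroxisomal chain-shortening enzymes, 2 of 3 electron transfer members and 2 of 5 auxiliary enzymes. They were also made for 1 of 5 acyl-CoA dehydrogenases, 1 of 4 activation and carnitine transfer members and 1 of 4 peroxisomal membrane and biogenesis members.

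**Figure D2:**
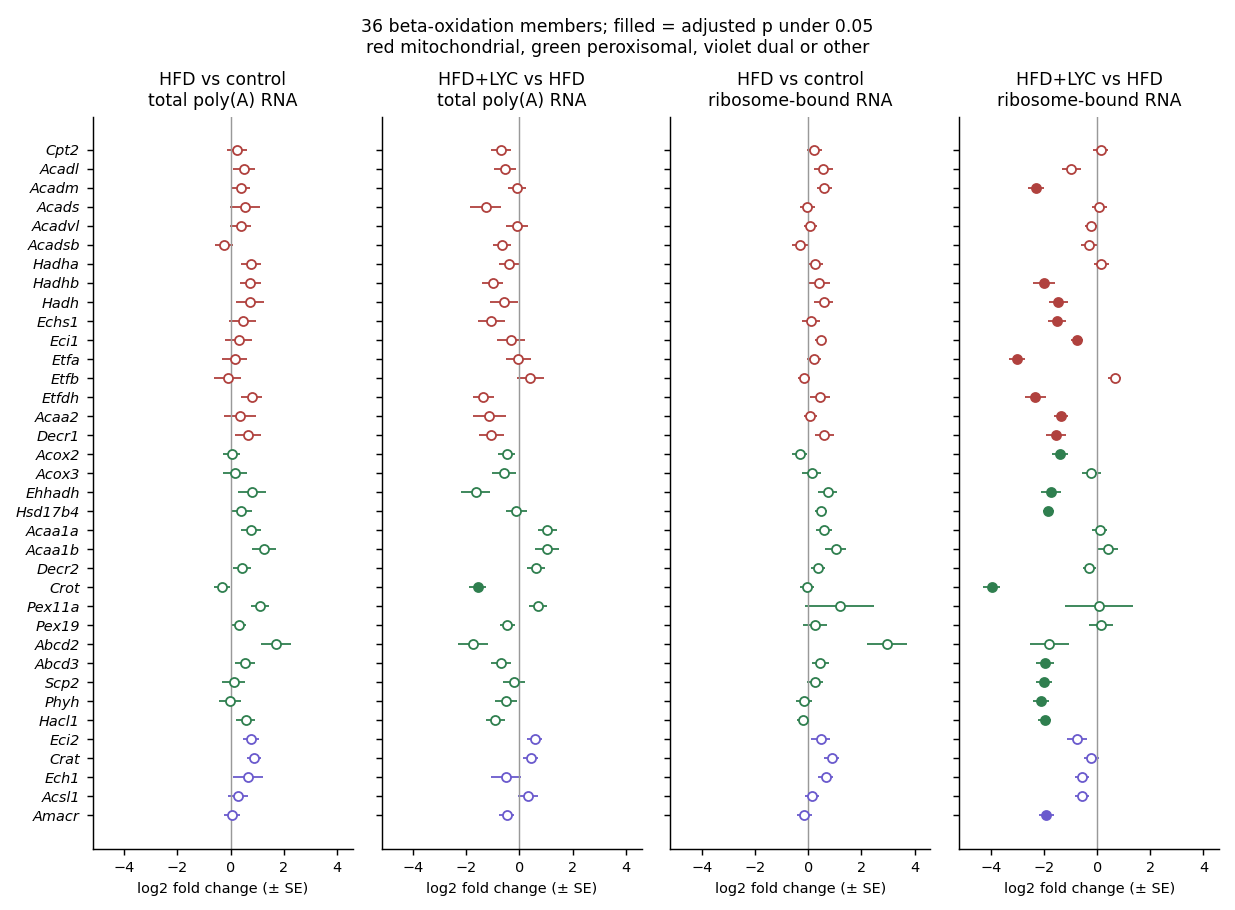
Log2 fold change (edgeR, with SE) of each of the 36 members for HFD against control chow and for HFD+LYC against HFD, in total poly(A) and in ribosome-bound RNA. Filled points passed the test: none in either HFD against control panel, Crot alone in HFD+LYC against HFD mRNA, and 18 members in ribosome-bound RNA, all to the left of 0.

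Among transfer and entry enzymes Crot had the largest fall of the members. Crot stood at 524, 531 and 543 CPM on control chow, 381, 625 and 529 on HFD, and 29.4, 42.6 and 25.04 on HFD+LYC in RNC libraries (log2 fold change -3.99, SE 0.31, adjusted p = 5.87e-05 against HFD). All 3 HFD+LYC livers lay far under the other 6. Cpt2 was not called, at 160.0, 136 and 138 CPM on control chow, 221, 149.8 and 135 on HFD, and 131, 244 and 177 on HFD+LYC (log2 fold change 0.13, SE 0.29). Acsl1, which activates long-chain fatty acids to acyl-CoA, stood at 1012, 570.1 and 627 CPM on HFD and 486, 505 and 489 on HFD+LYC (log2 fold change -0.58, SE 0.27, adjusted p = 0.148), lower without overlap but not called. Crat had a log2 fold change of -0.22 (SE 0.29).

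Acadm was the only acyl-CoA dehydrogenase called. It stood at 178, 204 and 191 CPM on control chow, 219, 365 and 286 on HFD, and 62.9, 72.3 and 40.03 on HFD+LYC (log2 fold change -2.32, SE 0.29, adjusted p = 0.000801). Acadl was lower without overlap, at 206, 257 and 242 CPM on HFD and 61.3, 187 and 107 on HFD+LYC, and missed the threshold (adjusted p = 0.0717), while DESeq2 and limma-voom called it (adjusted p = 0.0324 and 0.0436). The very-long-chain, short-chain and short branched-chain enzymes Acadvl, Acads and Acadsb had log2 fold changes of -0.22 (SE 0.23), 0.07 (SE 0.28) and -0.31 (SE 0.32), with overlapping groups.

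The subunits of electron transfer flavoprotein parted. Etfa, the alpha subunit, stood at 318, 337 and 324 CPM on control chow, 282, 422 and 429 on HFD, and 34.6, 62.0 and 42.3 on HFD+LYC (log2 fold change -3.03, SE 0.29, adjusted p = 0.000176; gene at chromosome 9, 55454436 to 55512243). Etfb stood at 315, 244 and 228 CPM on control chow, 269, 209.8 and 218 on HFD, and 309.8, 375 and 409 on HFD+LYC, higher without overlap in HFD+LYC than in HFD livers (log2 fold change 0.65, SE 0.23, adjusted p = 0.0667), and was called by DESeq2 and limma-voom (adjusted p = 0.00961 and 0.0454). The log2 ratio of Etfa to Etfb CPM in RNC libraries was 0.01, 0.47 and 0.51 on control chow, 0.07, 1.01 and 0.98 on HFD and -3.15, -2.59 and -3.26 on HFD+LYC. In mRNA it was -0.39, -0.17 and 0.52 on HFD and -0.41, 0.41 and -0.68 on HFD+LYC, so the ratios overlapped there and did not in RNC. Etfdh, which accepts electrons from the flavoprotein, stood at 64.8, 74.4 and 103 CPM on control chow, 53.2, 169.9 and 107 on HFD, and 20.1, 21.7 and 23.3 on HFD+LYC (log2 fold change -2.34, SE 0.40, adjusted p = 0.00356). This pair and the next were singled out after their values were seen.

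The trifunctional protein subunits also parted. Hadhb stood at 87.1, 98.7 and 116 CPM on control chow, 57.5, 193 and 145 on HFD, and 30.2, 44.1 and 24.8 on HFD+LYC (log2 fold change -2.001, SE 0.42, adjusted p = 0.00697). Hadha stood at 69.2, 59.1 and 89.8 CPM on control chow, 69.2, 107 and 85.2 on HFD, and 76.0, 94.0 and 122 on HFD+LYC (log2 fold change 0.16, SE 0.27, adjusted p = 0.726), with groups that overlapped. The log2 ratio of Hadhb to Hadha CPM in RNC libraries was 0.33, 0.73 and 0.37 on control chow, -0.27, 0.84 and 0.77 on HFD and -1.32, -1.08 and -2.27 on HFD+LYC. In mRNA it was -0.15, -0.64 and -0.28 on control chow, -0.54, -0.21 and -0.35 on HFD and -1.04, -0.88 and -0.98 on HFD+LYC. The HFD+LYC ratios were thus the lowest of the 3 diets in both kinds of library, with no overlap. The transcripts differ in base composition: GC content was 45.0% for Etfa, 57.1% for Etfb, 45.4% for Hadhb and 51.3% for Hadha.

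**Figure D3:**
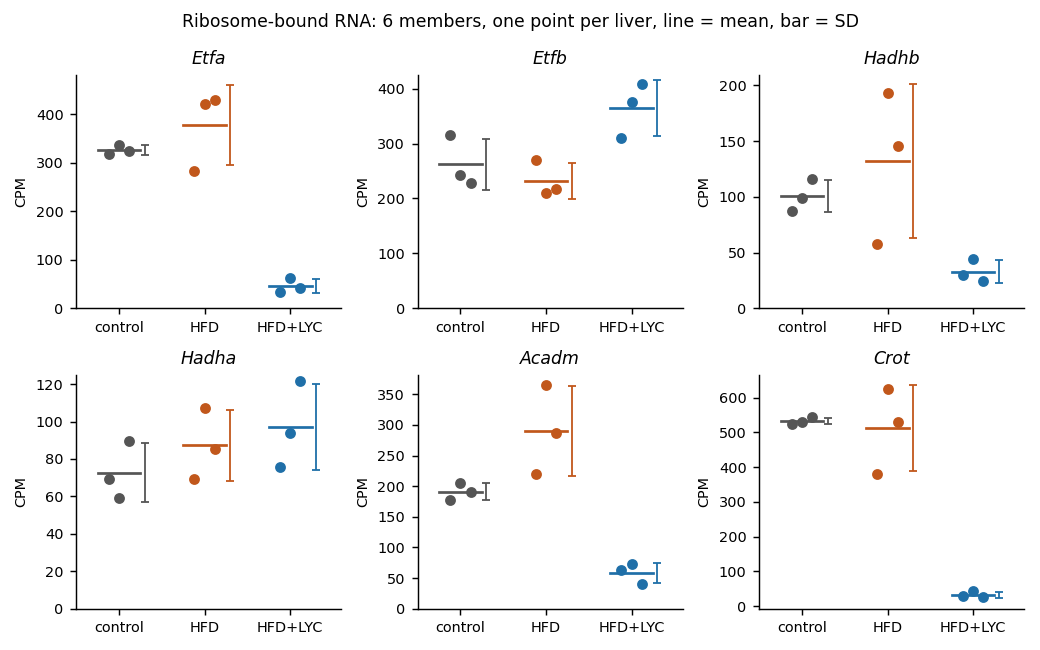
Levels in ribosome-bound RNA (CPM, linear axes from 0) of both electron transfer flavoprotein subunits, both trifunctional protein subunits, Acadm and Crot, with 1 point per liver, the mean as a line and the SD as a bar (n = 3). Etfa, Hadhb, Acadm and Crot are lowest in the 3 HFD+LYC livers. Etfb is higher there than in every HFD liver but overlaps control, and Hadha overlaps between diets.

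The other mitochondrial steps fell as well. Hadh, the dehydrogenase for medium and short chains, stood at 141, 170.3 and 172 CPM on control chow, 145, 334 and 241 on HFD, and 67.1, 126 and 67.2 on HFD+LYC (log2 fold change -1.47, SE 0.36, adjusted p = 0.0137). Echs1, the short-chain hydratase, stood at 97.5, 138 and 137 CPM on control chow, 68.8, 186 and 143 on HFD, and 48.8, 48.3 and 41.5 on HFD+LYC (log2 fold change -1.52, SE 0.35, adjusted p = 0.00979). HFD replicate 1 was the lowest HFD liver for each of them, yet it lay above all 3 HFD+LYC livers. Acaa2 stood at 537, 530.4 and 637 CPM on control chow, 446, 709.6 and 635 on HFD, and 195, 274 and 226 on HFD+LYC (log2 fold change -1.36, SE 0.26, adjusted p = 0.00484). Of the auxiliary enzymes, Decr1, the mitochondrial dienoyl-CoA reductase, stood at 127, 127 and 143 CPM on control chow, 126, 263 and 212 on HFD, and 38.5, 97.4 and 66.9 on HFD+LYC (log2 fold change -1.57, SE 0.37, adjusted p = 0.0116), and Eci1 at 90.6, 88.5 and 96.3 CPM on control chow, 102, 147 and 129 on HFD, and 70.0, 62.9 and 88.1 on HFD+LYC (log2 fold change -0.77, SE 0.23, adjusted p = 0.0294). Eci2, Ech1 and Decr2 were not called, with log2 fold changes of -0.78 (SE 0.37), -0.58 (SE 0.27) and -0.30 (SE 0.25).

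In peroxisomes, 4 of the 7 chain-shortening enzymes fell. Hsd17b4 stood at 307, 297 and 285 CPM on control chow, 412, 429 and 395 on HFD, and 92.5, 121 and 129 on HFD+LYC (log2 fold change -1.85, SE 0.22, adjusted p = 0.000508), and Acox2 at 92.7, 125 and 136 CPM on control chow, 59.6, 128 and 93.3 on HFD, and 37.3, 33.4 and 35.3 on HFD+LYC (log2 fold change -1.41, SE 0.30, adjusted p = 0.00699). Scp2 stood at 4190.4, 4557 and 3506 CPM on control chow, 4583, 4687 and 5418 on HFD, and 1149, 1588 and 905 on HFD+LYC (log2 fold change -2.01, SE 0.31, adjusted p = 0.00205). No HFD+LYC liver reached the lowest HFD liver for any of these. Ehhadh stood at 124, 101 and 121 CPM on control chow, 103, 255 and 215 on HFD, and 35.0, 62.3 and 72.8 on HFD+LYC (log2 fold change -1.75, SE 0.38, adjusted p = 0.00771). Acox3, another branched-chain oxidase, had overlapping groups (log2 fold change -0.23, SE 0.36). The peroxisomal thiolases were not called: Acaa1a stood at 196, 139 and 144 CPM on control chow, 189.9, 308 and 221 on HFD, and 197, 335 and 232 on HFD+LYC (log2 fold change 0.09, SE 0.29), and Acaa1b at 601, 382 and 393 CPM on control chow, 807, 1157 and 829.6 on HFD, and 642, 1809 and 1242 on HFD+LYC (log2 fold change 0.40, SE 0.39).

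All members of alpha-oxidation and racemisation were called. Phyh stood at 2277, 2374 and 2211 CPM on control chow, 2194, 1780.4 and 2156 on HFD, and 458, 639.7 and 309 on HFD+LYC (log2 fold change -2.12, SE 0.31, adjusted p = 0.00167), Hacl1 at 110.5, 122 and 138 CPM on control chow, 84.5, 123 and 115 on HFD, and 24.8, 27.6 and 28.5 on HFD+LYC (log2 fold change -1.99, SE 0.23, adjusted p = 0.00044), and Amacr at 71.1, 104 and 108 CPM on control chow, 55.6, 102 and 96.2 on HFD, and 23.6, 22.1 and 21.2 on HFD+LYC (log2 fold change -1.93, SE 0.29, adjusted p = 0.00193). For these genes the 6 control and HFD livers lay together and the 3 HFD+LYC livers far under them. Of the membrane members, Abcd3, the transporter of long and branched acyl-CoA into peroxisomes, stood at 235, 296 and 265 CPM on control chow, 198, 482 and 405 on HFD, and 80.7, 115 and 83.7 on HFD+LYC (log2 fold change -1.96, SE 0.34, adjusted p = 0.00373). Abcd2 stood at 4.76, 31.8 and 14.4 CPM on HFD and 2.07, 8.06 and 4.42 on HFD+LYC with overlap (log2 fold change -1.81, SE 0.73), and Pex11a and Pex19 had log2 fold changes of 0.07 (SE 1.28) and 0.14 (SE 0.46).

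Of these 18, Hadh lost its call without HFD replicate 2 (adjusted p = 0.058), and Eci1 without control replicate 2, HFD replicate 2 or HFD replicate 3 (adjusted p 0.052 to 0.106). Each of the other 16 kept its call when any 1 of the 9 RNC libraries was left out. Fitted on the 6 compared libraries alone, Decr1, Hadh and Eci1 were not called (adjusted p = 0.052, 0.058 and 0.125). With the GC correction, 8 of the 18 kept a lower call: Acaa2, Acadm, Amacr, Crot, Etfa, Etfdh, Hacl1 and Hsd17b4. Under it Acadsb was called higher (log2 fold change 1.11, adjusted p = 0.012), though its GC value is uncertain, as described below. The median over the members was -0.42. Over all genes 3094 were then called, counting both directions, in place of 3120.

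Against control livers, which share the same HFD+LYC libraries, 14 members were called lower and 1 higher in RNC, where 17.1% and 9.23% of all genes were called lower and higher. The median was -0.53, against -0.28 over all genes. The lower calls were the 18 above without Ehhadh, Decr1, Hadh and Eci1, with log2 fold changes from -4.04 for Crot to -1.29 for Acaa2. Every HFD+LYC liver was under every control liver for 19 members and above for 2, against 30.6% and 14.1% of all genes. The 19 were the 14 called and Ehhadh, Decr1, Hadh, Eci1 and Acsl1 (log2 fold changes -1.03 to -0.32), and the 2 were Acaa1a (0.68) and Acaa1b. Acaa1b was the higher call (log2 fold change 1.43, SE 0.39, adjusted p = 0.0238). The next highest were Pex11a and Abcd2, at 1.26 (SE 1.31) and 1.15 (SE 0.74), with overlap. The Acaa1b call was lost when only the 6 compared libraries were fitted (adjusted p = 0.069), without control replicate 2 or 3 (adjusted p = 0.107 and 0.102) and when the replicate number was a block (adjusted p = 0.0597), and Hadhb lost its call without control replicate 2, control replicate 3 or HFD+LYC replicate 3 (adjusted p 0.051 to 0.062). Without HFD+LYC replicate 2 the median was -1.02. With the GC correction the median was 0.03, 7 members were called lower and 5 higher, namely Abcd2, Acaa1b, Decr2, Hadha and Pex19. Over all genes 3150 were then called, counting both directions, in place of 3072.

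Transcript GC content moved with these differences in the members and in all genes. Members' transcripts held 41.6% to 60.1% GC (median 49.3%). Across the 36 members, Spearman's rho between GC content and the HFD+LYC against HFD log2 fold change was 0.68 in RNC and 0.41 in mRNA, and across all genes with a GC value it was 0.41 in both. Across members for HFD against control it was 0.16 in mRNA and 0.02 in RNC. These are descriptions across genes that share libraries. Of the 18 members under the median GC content, 13 were called lower in HFD+LYC against HFD RNC, with a median log2 fold change of -1.94. Of the 18 at or over it, 5 were called lower, with a median of -0.23. Over all genes tested, split at the same GC value, 1375 of 5292 under it and 643 of 6276 at or over it were called lower. Their medians were -0.90 and 0.20. Etfa (45.0%), Scp2 (44.8%) and Crot (44.1%) lay near the low end, and Etfb (57.1%), Acaa1b (58.9%) and Acaa1a (59.4%) near the high end. Acadsb (42.7%) was low in GC and was not called. Its GC value came from a transcript with 6032 different 50-base stretches, longer than the 3348 bases listed for it in the deposited files. For Pex11a the transcript had 2192 such stretches against 879 bases listed. The GC values of both, and their results under the correction, are thus uncertain. The part of base composition in these results was not tested beyond the correction.

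**Figure D4:**
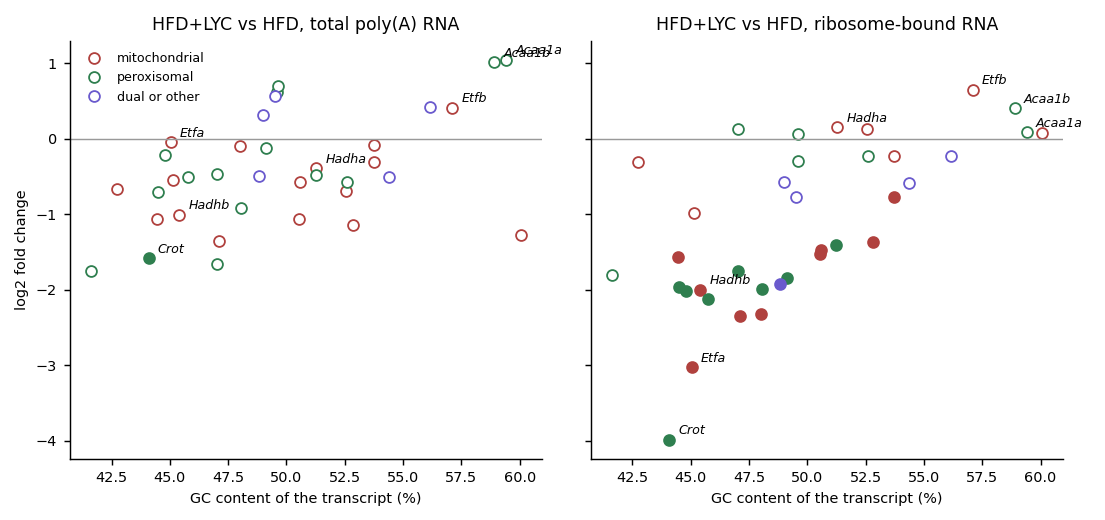
Log2 fold change of the 36 members in HFD+LYC against HFD livers plotted against the GC content of the transcript, in total poly(A) RNA (left) and ribosome-bound RNA (right). Filled points passed the test; in ribosome-bound RNA they lie mostly under the median GC content of 49.3%, with Etfa and Crot lowest and Etfb highest.

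Ribosome loading was read as the ratio of RNC to mRNA, in 1 model over all 18 libraries (12872 genes). That model has no term for the liver, so it treats the 2 libraries of a liver as independent. The liver was a block only where this is said. In control livers members stood higher in RNC relative to all genes. Of the 36, 32 were above 0, against 47.6% of all genes, with a median log2 ratio of 0.82 against -0.07 over all genes, and all 16 mitochondrial members were above 0 (median 0.93). For the 15 peroxisomal members the count was 11 (median 0.60). No member was called with edgeR, where 0.0155% of all genes were called higher. At an unadjusted p under 0.05 there were 18, and limma-voom called none. DESeq2 called 9, all higher: Acox2, Decr1, Echs1, Etfa, Hacl1, Hadhb, Hsd17b4, Phyh and Scp2. Over all genes DESeq2 called 2181 in that comparison, counting both directions. Leaving out HFD+LYC liver 2 gave 3 calls with edgeR, where calls over all genes, counting both directions, went from 274 to 1527. Echs1 had the highest fitted ratio (1.41, SE 0.48), with 0.47, 2.67 and 1.49 in the 3 control livers, and Pex11a the lowest (-1.32, SE 0.87). In HFD livers 31 of 36 were above 0, against 47.7% of all genes (median 0.71, and 0.42 without HFD liver 2), again with no call by edgeR, where 0% of all genes were called higher. There were 16 at an unadjusted p under 0.05, limma-voom called none, and DESeq2 called 4 higher (Etfa, Hsd17b4, Phyh and Scp2). The 18 and 16 members at an unadjusted p under 0.05 have no share of all genes beside them here. Over all genes DESeq2 called 1144 there, counting both directions.

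The ratio did not pass for any member in HFD against control livers, where 0% of all genes passed. None had an unadjusted p under 0.05, none was called by DESeq2 or limma-voom, and the median was -0.07 (-0.34 to 0.21 with a liver left out). Abcd2 alone had ratios without overlap, higher on HFD (1.27, SE 0.97, in log2), against 2.86% of all genes. The highest fitted changes after it were 0.27 for Crot and 0.22 for Acadm, and the lowest were -0.76 for Hacl1, -0.56 for Acads and -0.51 for Hadha.

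In HFD+LYC against HFD livers 8 members were called lower and none higher, where 13% and 3.42% of all genes were called lower and higher. The median was -0.70, against -0.41 over all genes. With the GC correction alone Etfa, Crot and Acadm were called lower and Acadsb, Cpt2 and Pex19 higher, and the median was 0.00456. Over all genes 2522 were then called, counting both directions, in place of 2116. The ratios of 17 members were lower without overlap, against 24.6% of all genes: the 8 called and Abcd3, Hacl1, Hadhb, Etfdh, Acaa1a, Acox2, Acsl1, Crat and Acaa1b (log2 changes -1.32 to -0.68). The highest fitted changes were 1.28 for Acads, 0.74 for Cpt2 and 0.52 for Pex19. Etfa had log2 ratios of 0.66, 2.42 and 0.85 on control chow, 1.41, 1.53 and 0.85 on HFD and -2.24, -0.87 and -2.36 on HFD+LYC (log2 fold change -3.06, SE 0.59, adjusted p = 0.00201 for the change). Crot had 0.41, 0.42 and 0.12 on control chow, 0.23, 0.89 and 0.55 on HFD and -1.93, -1.43 and -2.36 on HFD+LYC (log2 fold change -2.48, SE 0.40, adjusted p = 0.00049). Acadm had 0.35, 0.82 and 0.60 on control chow, 0.86, 1.11 and 0.47 on HFD and -1.34, -0.87 and -2.26 on HFD+LYC (log2 fold change -2.29, SE 0.43, adjusted p = 0.00141). For all 3 genes the ratio was above 0 in every control and HFD liver and under 0 in every HFD+LYC liver.

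Scp2 had log2 ratios of 0.78, 1.49 and 0.79 on HFD and -0.95, -0.38 and -1.45 on HFD+LYC (change -1.87, SE 0.49, adjusted p = 0.0136). Hsd17b4 had 1.69, 1.23 and 0.67 on HFD and -0.94, -0.05 and -0.86 on HFD+LYC (change -1.80, SE 0.47, adjusted p = 0.0132). Both had ratios in HFD+LYC livers that stayed under those of HFD livers without overlap. Phyh had 1.13, 1.12 and 0.78 on HFD and -0.66, 0.19 and -1.69 on HFD+LYC (adjusted p = 0.0277), and Amacr 0.03, 0.75 and 0.12 on HFD and -1.17, -0.86 and -1.42 on HFD+LYC (adjusted p = 0.0163). Eci2 had -0.43, 0.76 and 0.06 on HFD and -0.88, -2.20 and -0.68 on HFD+LYC (adjusted p = 0.0476), where HFD liver 2 had the highest ratio. With the liver as a block Eci2 and Phyh were not called (adjusted p = 0.0972 and 0.0586), nor were they with no filter on low counts (adjusted p = 0.071 and 0.051), and Eci2 was not with RLE size factors (adjusted p = 0.064). Etfa, Crot and Acadm kept their calls when any 1 liver was left out, while leaving out HFD liver 2 left these 3 alone and leaving out HFD+LYC liver 3 left these with Hsd17b4 and Eci2. Eci2 lost its call without any control liver, HFD liver 2 or 3, or HFD+LYC liver 1 or 2 (adjusted p 0.060 to 0.233). Phyh lost it without control liver 3, any HFD liver, or HFD+LYC liver 1 or 3 (adjusted p 0.055 to 0.121), and Hsd17b4 without HFD liver 1 or 2 (adjusted p = 0.060 and 0.058). With the block and the GC correction together only Etfa was called (log2 change -1.93, adjusted p = 0.0413), and the median was -0.03.

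Within HFD+LYC livers 3 members were called higher and 8 lower in RNC than in mRNA, where 12.8% and 30.6% of all genes were called higher and lower. The higher ones were the mitochondrial members Cpt2, Acads and Acadsb. Cpt2 had log2 ratios of 1.12, 2.67 and 1.21 (log2 fold change 1.65, SE 0.35, adjusted p = 0.00128), Acads 1.11, 2.45 and 0.86 (log2 fold change 1.44, SE 0.50, adjusted p = 0.0283), and Acadsb 0.37, 2.07 and 0.50 (log2 fold change 1.05, SE 0.34, adjusted p = 0.0183). Liver 2 was the highest for each, and without it Acads, Acadsb and, among the lower ones, Eci2 were not called (adjusted p = 0.205, 0.309 and 0.083). The lower ones were Crot, Etfa, Acadm, Acaa1a, Eci2, Amacr, Hacl1 and Scp2. Scp2 lost its call without control liver 1 or 3, any HFD liver, or HFD+LYC liver 1 or 3 (adjusted p 0.054 to 0.228), Hacl1 without HFD+LYC liver 1 or 3 (adjusted p = 0.053 and 0.087), and Acads also without HFD+LYC liver 1 (adjusted p = 0.066). Scp2 was not called with no filter on low counts (adjusted p = 0.0895), nor Acadsb with the liver as a block (adjusted p = 0.059). Acaa1a had -1.31, -1.26 and -1.12 (log2 fold change -1.23, SE 0.32, adjusted p = 0.00467), and Hacl1 -0.84, -0.83 and -1.15 (log2 fold change -0.97, SE 0.31, adjusted p = 0.0182). With the GC correction 6149 of all genes were called, counting both directions, in place of 5586. Of the members, 15 were then called higher and 1, Crot, lower, and their median went from -0.22 to 0.56. Without HFD+LYC liver 2 it was -0.47, and without liver 3 -0.09.

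Mitochondrial and peroxisomal members were compared within each library as the mean log2 CPM of the 16 minus that of the 15, a description with no test. In mRNA this difference was -0.02, -0.76 and -0.17 on control chow, -0.70, -0.52 and -0.01 on HFD and -0.54, -0.98 and -0.41 on HFD+LYC (mean -0.32 ± 0.39, -0.41 ± 0.35 and -0.64 ± 0.30, SD, n = 3). In these CPM, which are not divided by length, the peroxisomal mean was the higher in all 9 livers, and the diets overlapped. The peroxisomal transcripts are longer (median 2664 against 2005 bases), and with the authors' deposited RPKM the difference was above 0 in 3 of the 9 mRNA libraries, control replicates 1 and 3 and HFD replicate 3. In RNC it was 0.20, 0.22 and 0.33 on control chow, 0.05, -0.02 and 0.09 on HFD and 0.33, 0.38 and 0.15 on HFD+LYC (0.25 ± 0.07, 0.04 ± 0.05 and 0.29 ± 0.12). The RNC difference was lower in each HFD liver than in any control or HFD+LYC liver. These differences depend on how members are summarised: with a pseudocount of 5 CPM in place of 0.5 they were 0.0465, -0.0707 and 0.105 in RNC, and with the deposited RPKM they were -0.0195, -0.0871 and -0.344 in mRNA and above 0 in all 9 RNC libraries.

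The difference was higher in RNC than in mRNA in 9 of 9 livers, by 0.10 to 1.36 log2 units (median 0.56). Control liver 2 and HFD+LYC liver 2 had the largest shifts, 0.98 and 1.36. Across all genes with a GC value, the RNC to mRNA log2 ratio fell with transcript length. Spearman's rho was -0.40 in control, -0.37 in HFD and -0.13 in HFD+LYC livers. Across the 36 members it was -0.27, -0.11 and 0.14. The peroxisomal transcripts are the longer ones, and the part of length in the shift was not tested. The shift was also above 0 in 9 of 9 livers with a pseudocount of 5 CPM, though the lowest liver was at 0.038. So it was with the 5 unplaced members put in their other organelle (lowest 0.069), and without the low members Pex11a and Abcd2 (lowest 0.010). With medians over members it was above 0 in 7 of 9 (lowest -0.254). With the deposited RPKM the shift ran from 0.104 to 1.34. That is no separate check, since gene length and library total cancel in the shift. In the mRNA libraries the mitochondrial mean varied more between livers of a diet than the peroxisomal mean, with SDs of 0.64 against 0.26 in control, 0.57 against 0.21 in HFD and 0.48 against 0.23 in HFD+LYC livers. Those SDs were 0.09 and 0.02 in control RNC. The other RNC groups did not share that pattern. On the high-fat diet alone the mitochondrial SD, 0.34, was under the peroxisomal SD, 0.37. With lycopene added, the mitochondrial SD was 0.28 and the peroxisomal SD 0.27. The share of reads that the authors' library total holds beyond the listed genes was 23.0% in control mRNA replicate 2 and 4.39% and 4.83% in the other 2, and that library had the lowest mitochondrial mean of its group. HFD+LYC mRNA replicate 2, at 7.91%, had the highest share and the lowest mitochondrial mean (6.46) of its group. HFD mRNA replicate 2, at 19.7%, was also the highest of its group in that share, but its mitochondrial mean of 7.32 was above the 7.07 of replicate 1. Within each diet, the summed level of the 7 hepatocyte markers ranked the mRNA libraries in the same order as the mitochondrial mean. On HFD that sum was 48652, 61042 and 113865 CPM. Whether the spread comes from that share of reads or goes with the hepatocyte markers was not tested.

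**Figure D5:**
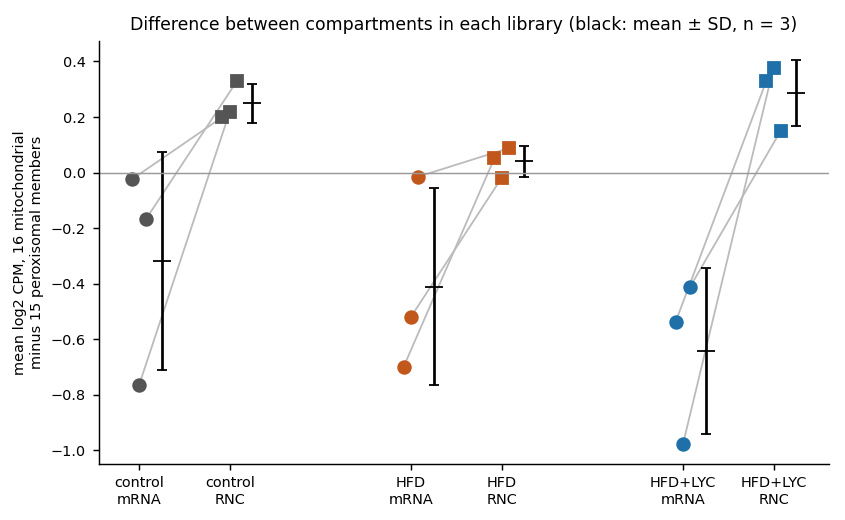
Mean log2 CPM of the 16 mitochondrial minus the 15 peroxisomal members in each library (circles mRNA, squares RNC, grey lines join the 2 libraries of a liver, black marks mean and SD, n = 3). Every line rises from mRNA to RNC, and the mRNA points spread from -0.98 to -0.01.

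Other genes of these pathways were counted from a list of 59 that excludes the members. In HFD against control mRNA none of the 59 was called with edgeR, 2 (Fgf21 and Lpin1) with DESeq2 and none with limma-voom. By edgeR 4 had an unadjusted p under 0.05, as did 358 of all 12664 genes. Of the 59, 41 were above and 18 below control (median 0.13), where 49.1% of all genes were above. Fgf21, a hormone that PPAR-alpha induces, stood at 13.9 ± 2.74 against 2.26 ± 2.33 CPM, and Lpin1, a phosphatidate phosphatase and PPAR-alpha co-regulator, at 60.1 ± 19.7 against 22.3 ± 5.74 CPM. Cpt1a, the outer carnitine palmitoyltransferase, stood at 316 ± 102 against 194 ± 46.2 CPM, and Acacb, which makes the malonyl-CoA that inhibits it, at 138 ± 78.0 against 77.7 ± 36.4 CPM. Bdh1, a dehydrogenase of ketone body metabolism, stood at 236 ± 99.0 against 138 ± 48.7 CPM. Acad11 and Acsm3 stood at 193 ± 89.0 against 128 ± 18.5 CPM and 86.5 ± 13.4 against 67.7 ± 10.2 CPM, the peroxins Pex7 and Pex14 at 66.8 ± 13.8 against 50.4 ± 11.4 CPM and 44.5 ± 19.8 against 32.5 ± 7.03 CPM, and the peroxisomal thioesterase Acot8 at 16.8 ± 2.66 against 13.8 ± 2.90 CPM. All of these means were above control, without a call by edgeR. The most negative log2 fold changes of the 59 were -0.57 for Pdk4, a kinase that inhibits pyruvate dehydrogenase, and -0.41 for Sirt1.

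In HFD+LYC against HFD mRNA 3 of the 59 rose and none fell: Lpin1 (559 ± 184 against 60.1 ± 19.7 CPM; log2 fold change 3.21, adjusted p = 0.00494), Abcd4, a lysosomal relative of the peroxisomal transporters (log2 fold change 2.29, adjusted p = 0.015), and Ppargc1b, a PPAR coactivator (log2 fold change 2.12, adjusted p = 0.0481). Against control 4 rose: Lpin1, Abcd4, Sirt3 (log2 fold change 1.19, adjusted p = 0.0387) and Slc22a5, the carnitine importer (log2 fold change 1.61, adjusted p = 0.0298). DESeq2 called 10 and 13 of the 59 in these comparisons, counting both directions, where it called 1491 and 1628 of all genes. In HFD against control RNC none was called with edgeR, none with DESeq2 and none with limma-voom, and 6 had an unadjusted p under 0.05. In HFD+LYC against HFD RNC 5 of the 59 rose and 12 fell, near the 9.34% and 17.4% of all genes called higher and lower. Of peroxisomal enzymes beyond the members, Cat, catalase, fell (852 ± 166 against 2155 ± 80.7 CPM; log2 fold change -1.34, adjusted p = 0.00472), as did Lonp2, Nudt7 and Pecr (log2 fold changes -2.15, -1.85 and -0.97). The peroxins Pex2 and Pex7 fell, with Pex2 at 2.40 ± 2.43 against 41.2 ± 4.58 CPM. Acat1, a thiolase of ketone body metabolism, Acsm3, Acsl4, Mlycd and Sirt1 fell too, and Lpin1, Rxra, Ppargc1b, Acad10 and Abcd4 rose. Of the PPAR-alpha partners, Rxra stood at 299 ± 27.5 against 106 ± 8.10 CPM and Lpin1 at 524 ± 95.2 against 16.6 ± 1.46 CPM. Against control, 7 of the 59 were called higher and 10 lower in RNC, near the 9.23% and 17.1% of all genes.

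Markers of other liver cells moved with diet as well. The summed level of 10 Kupffer cell markers was 314 to 658 CPM in HFD and 209.8 to 358 CPM in HFD+LYC mRNA, and 275 to 488 against 148 to 204 CPM in RNC, where 4 of 10 were called lower and at most 2 were at 0 in a library. That of 7 stellate cell markers was 201 to 246 CPM in HFD and 60.4 to 93.0 CPM in HFD+LYC RNC, with 2 of 7 called lower. The 5 cholangiocyte markers summed to 137 to 178 CPM in HFD and 31.7 to 49.9 CPM in HFD+LYC mRNA, with 1 called lower, and to 18.8 to 38.9 and 14.7 to 20.5 CPM in RNC, with 1 called higher and 1 lower of the 2 tested. The 7 sinusoidal endothelial markers summed to 86.1 to 131 CPM in HFD and 42.8 to 75.7 CPM in HFD+LYC RNC, with 2 called lower, but to 234 to 301 and 394 to 594 CPM in mRNA, with 1 called higher. The 7 hepatocyte markers summed to 66132 to 98502 CPM in HFD and 109355 to 429405 CPM in HFD+LYC RNC, with 2 called higher, and all 7 above HFD (median log2 fold change 0.98). In mRNA they summed to 48652 to 113865 CPM in HFD and 22780 to 83105 CPM in HFD+LYC livers, with 5 of 7 below HFD (median -0.57) and none called with edgeR (1 at an unadjusted p under 0.05). The 5 erythroid markers summed to 258 to 747 CPM in HFD and 657 to 1180.2 CPM in HFD+LYC mRNA, with 4 of 5 above HFD (median 1.28) and none called with edgeR (3 at an unadjusted p under 0.05), and to 351 to 1024 and 516 to 805 CPM in RNC, with 2 called higher. These counts stand against 0.916% of all genes called lower and 1.99% higher in mRNA, and 17.4% lower and 9.34% higher in RNC. Adipocyte markers summed to at most 8.78 CPM in any library, with 3 or 4 of 4 at 0 in at least 1 library of each group. The part of these markers in the members' results was not tested.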

How the data were processed

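Counts of reads per gene, as the authors deposited them for each library, were used. RPKM values, deposited by the authors beside the counts, served as 1 alternative for levels. Per the submitters' processing notes, bcl2fastq and the mm10 genome were used. The series' design text says that reads were aligned to RefSeq transcripts and that RPKM was then computed by the authors; no source used here gives the aligner, the counting tool or the use of strand. The members and lists were chosen with earlier results of these data known.

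Genes were tested with edgeR 4.0.16 in R 4.3.3 (quasi-likelihood, TMM, at least 10 reads by filterByExpr, Benjamini-Hochberg threshold 0.05), in fits over 9 mRNA, 9 RNC and all 18 libraries. The RNC to mRNA ratio was an interaction term, in a fit without a term for the liver. Alternatives were DESeq2 1.42.0, limma-voom (limma 3.58.1), RLE size factors, no filter, only the compared libraries, a replicate block, each library left out, and, added after seeing the data, a lowess correction for transcript GC content. The edgeR test of HFD+LYC against HFD, in mRNA, in RNC and for the ratio, was tried on simulated counts with known changes. The alternatives and the other steps were not. Mean log2 CPM used a pseudocount of 0.5. Depth is given with the libraries; 3 reads were taken as the floor.

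Members were named where they passed the test, where groups did not overlap, or where they were among the 3 largest rises or falls. Same-numbered mRNA and RNC libraries of a diet carry the same animal code in the deposited data, so they pair by liver; their deviations from group means correlated at -0.0419 to 0.561 (over 0.1 in 3 of 9 pairs). Across diets, no label pairs livers by number. Peroxisomal targeting signals were not analysed here. Some genes of the wider pathway list count in its totals but are not reported here by name.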

Additional observations from a re-analysis of the deposited data

Results flagged for a closer look

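For 8 members the HFD+LYC against HFD difference was not the same in ribosome-bound as in total poly(A) RNA, by edgeR's interaction test with adjusted p under 0.05. The difference between the log2 fold changes (RNC minus mRNA) was -3.06 for Etfa, -2.48 for Crot, -2.29 for Acadm, -1.87 for Scp2, -1.80 for Hsd17b4, -1.70 for Phyh, -1.50 for Amacr and -1.40 for Eci2. In each of them all 3 HFD+LYC livers had a lower RNC to mRNA ratio than all 3 HFD livers. The HFD+LYC RNC libraries, on which these values rest, had reads from fewer genes than the other libraries. With the liver as a block and a correction for GC content, Etfa alone passed.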

How the results depend on the processing

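Counts below are members called, with edgeR unless another tool is named, and the cause of a change was not tested. In HFD+LYC against HFD mRNA, 1 call became 5 with DESeq2, 3 with the replicate block and 0 with the GC correction, and 0 to 1 with a library left out. HFD+LYC against control mRNA gave 3 in place of 6 with the GC correction, and 0 to 6 with a library left out. HFD against control RNC gave 1 in place of 0 with DESeq2. HFD+LYC against HFD RNC gave 9 in place of 18 with the GC correction, where the median moved from -1.18 to -0.416. Against control in RNC the median moved to 0.0283 with that correction, and to between -1.02 and -0.424 with a library left out. DESeq2 called 9 in place of 0 for RNC against mRNA in control livers, where leaving out a liver gave 0 to 3, and 4 in place of 0 in HFD livers. Over all genes its calls were 2181 in place of 274 in control livers and 1144 in place of 13 in HFD livers. The 3 calls came with HFD+LYC liver 2 left out, where edgeR called 1527 of all genes. The median of RNC against mRNA in HFD+LYC livers moved to 0.559 with the GC correction, and to 0.539 with the block added.

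The replicate number pairs the mRNA and RNC libraries of a liver. With it as a block, 6 in place of 8 members were called for the RNC to mRNA ratio of HFD+LYC against HFD, and 1 with the GC correction as well. The median was 0.00456 with the GC correction alone, and -0.0256 with both. Leaving out a liver gave 3 to 8. No label pairs the numbers across diets. Same-numbered mRNA libraries of different diets correlated above 0.1 in 7 of 9 pairs, against 4 of 18 with other numbers, and same-numbered RNC libraries in 2 of 9. Crot was among the 3 called in HFD+LYC against HFD mRNA with that block.

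With the GC correction, directions turned for 0 to 12 of the 36 members per comparison: 8 in HFD+LYC against HFD RNC, 8 against control RNC, 11 for the ratio of HFD+LYC against HFD and 12 for RNC against mRNA in HFD+LYC livers. Only Scp2, in the last, had been called before the correction, and only Acadsb, in the first, was called after it. Of the values printed for named members, the Etfb difference in HFD against control mRNA was 0.0305 with limma-voom and 0.0750 with the block, and -0.419 to 0.293 with a library left out. In HFD+LYC against HFD RNC, Acaa1b ranged from -0.00117 to 0.719 and Hadha from -0.0447 to 0.320 with a library left out. Pex11a, HFD+LYC against control RNC, was -0.585 with limma-voom and ranged from -0.872 to 1.82. Scp2, RNC against mRNA in HFD+LYC livers, was 0.172 with the GC correction and 0.134 with the block added.

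The mitochondrial minus peroxisomal difference in RNC was 0.0859 in control and -0.0794 in HFD livers with medians over members. With a pseudocount of 5 CPM it was 0.0465 in control, -0.0707 in HFD and 0.105 in HFD+LYC livers, and with RPKM 0.536, 0.363 and 0.536. In mRNA it was -0.0195, -0.0871 and -0.344 with RPKM, in that order, against -0.318, -0.411 and -0.642 with CPM. Single members were followed for 83 selected values, not for every member in every comparison. Apart from the turned directions above, 510 results for these values kept direction and call under the alternatives, 57 lost a call and 9 gained one. With a library left out the counts were 677, 65 and 1. Calls gained outside the 83 values are not in these counts. For RNC against mRNA in HFD+LYC livers, the GC correction gave 16 calls in place of 11, with 4 in both. Over all genes it gave 6149 in place of 5586. In HFD+LYC against HFD RNC, 21 members were called in place of 18 without HFD+LYC replicate 2. Over all genes, calls in HFD+LYC against HFD mRNA went from 368 to 1491 with DESeq2, 1457 with the replicate block and 66 to 606 with a library left out. The smallest detectable difference was not measured.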
